A study of Homo sapiens with 2 samples.

Results

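The glycolysis and hypoxia response genes are 32 named genes in 3 roles: 19 of glycolysis and its control, 10 other targets of the hypoxia-inducible factors (HIFs), and 3 HIF subunits. They were set as a list of genes of known function, and 30 of the 32 could be measured, out of 18417 genes on the arrays. Expression was measured with GeneChip Human Gene 1.0 ST arrays in HT1080 cells, a human fibrosarcoma line, after 24 h in wells coated with 1 µg of rLCC111 or with BSA, with 1 array per coating. rLCC111 is the recombinant coiled-coil region of laminin-111 made in a human embryonic kidney cell line, and both arrays were of HT1080 cells. The methods give medium with fetal calf serum for culture of HT1080 cells and do not name the medium of the wells used for the arrays. The wells differed in the coating, and oxygen was not varied by the design. The values are log2 expression levels made by the authors with RMA, a method that corrects background, normalizes arrays and summarises the probes of a sequence. Where several one-symbol sequences stood for a gene, the one with the highest mean over both arrays was used, and a difference is always rLCC111 minus BSA on the log2 scale. The limit of silent genes was set at 6.61, below which 95% of 399 olfactory, taste and related receptor genes had their mean level. With 1 array per coating no difference has a replicate check, no p-value can be given, and a statement of higher or lower describes these 2 arrays.

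Glycolysis splits glucose into pyruvate in the cytosol and yields ATP without oxygen. Under low oxygen, prolyl hydroxylases of the EGLN family no longer mark the HIF alpha subunits for degradation by the VHL ligase, and the alpha subunits pair with ARNT on DNA at a short core motif and switch on glycolytic enzymes, lactate production, pH control, mitophagy and feedback genes. Much HIF control acts on protein stability, so that the mRNA of a HIF alpha subunit does not report its activity. Tumor lines often keep glycolysis high with oxygen present.

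The 4 members with the largest differences were all higher on rLCC111, and they came from both the glycolytic and the other HIF targets: CA12, PFKFB4, ALDOC and BHLHE40. The main chain of glycolytic enzymes lay close to its level on BSA. To show where the HIF core motif occurs in the genes that the differences turn on, the 250 bases before the annotated start are given for these 4 genes, for BNIP3, the member lowest on rLCC111 relative to BSA, and for PGK1 and LDHA, enzyme genes with small differences. The sequences are from RefSeq (GRCh38.p14), 5′ to 3′, up to the base before the start, and capitals mark ACGTG or GCGTG or their reverse complements CACGT and CACGC. LDHA has 2 starts in the table and the first is shown.
ALDOC (chr17:28576896-28577145, - strand): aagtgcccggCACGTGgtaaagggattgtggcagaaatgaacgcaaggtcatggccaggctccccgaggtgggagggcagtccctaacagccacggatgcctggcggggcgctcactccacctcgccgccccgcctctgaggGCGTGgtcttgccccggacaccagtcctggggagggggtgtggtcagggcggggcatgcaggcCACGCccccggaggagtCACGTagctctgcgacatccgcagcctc
PFKFB4 (chr3:48556804-48557053, - strand): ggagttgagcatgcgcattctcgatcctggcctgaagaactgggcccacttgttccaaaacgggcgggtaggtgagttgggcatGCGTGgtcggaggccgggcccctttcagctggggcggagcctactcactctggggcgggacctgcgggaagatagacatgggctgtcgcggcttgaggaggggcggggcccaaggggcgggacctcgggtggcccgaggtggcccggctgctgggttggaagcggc
CA12 (chr15:63381847-63382096, - strand): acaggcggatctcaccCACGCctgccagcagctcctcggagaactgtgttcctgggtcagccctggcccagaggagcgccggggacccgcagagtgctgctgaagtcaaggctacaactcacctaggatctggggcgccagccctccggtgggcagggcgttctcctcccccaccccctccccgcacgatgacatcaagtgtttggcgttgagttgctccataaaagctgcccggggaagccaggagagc
BHLHE40 (chr3:4979187-4979436, + strand): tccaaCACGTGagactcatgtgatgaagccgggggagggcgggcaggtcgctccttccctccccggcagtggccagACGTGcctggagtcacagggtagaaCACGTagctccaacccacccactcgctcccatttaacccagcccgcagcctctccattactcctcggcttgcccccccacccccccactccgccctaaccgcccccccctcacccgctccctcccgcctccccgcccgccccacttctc
BNIP3 (chr10:131981924-131982173, - strand): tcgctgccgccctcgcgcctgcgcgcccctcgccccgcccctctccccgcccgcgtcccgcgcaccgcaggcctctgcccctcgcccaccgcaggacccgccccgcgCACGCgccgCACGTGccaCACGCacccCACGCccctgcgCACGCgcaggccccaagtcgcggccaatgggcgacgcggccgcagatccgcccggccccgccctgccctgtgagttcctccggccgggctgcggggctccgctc
PGK1 (chrX:78103998-78104247, + strand): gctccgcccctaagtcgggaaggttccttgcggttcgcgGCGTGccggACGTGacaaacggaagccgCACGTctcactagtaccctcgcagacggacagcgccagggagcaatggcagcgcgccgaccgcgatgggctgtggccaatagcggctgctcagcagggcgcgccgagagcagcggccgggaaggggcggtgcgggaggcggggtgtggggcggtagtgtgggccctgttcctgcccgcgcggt
LDHA (chr11:18394313-18394562, + strand): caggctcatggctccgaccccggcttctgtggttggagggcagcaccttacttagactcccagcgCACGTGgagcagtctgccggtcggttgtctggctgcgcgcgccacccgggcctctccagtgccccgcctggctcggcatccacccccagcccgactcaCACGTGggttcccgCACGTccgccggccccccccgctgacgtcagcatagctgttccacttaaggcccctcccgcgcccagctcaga

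The search covered both strands of the 250 bases before each start, and CACGTG, which is also the E-box bound by MYC and by BHLHE40, holds ACGTG on each strand. Promoters were at hand for 31 of the 32 members, NDRG1 being the exception. ACGTG stood in 16 of 41 promoters of the glycolytic genes (39%) and in 5 of 10 of the other HIF targets (50%), against 18.5% of all 35116 promoters and 20.2% of those of protein-coding genes. For GCGTG the shares were 29.3% of the glycolytic promoters and 50% of those of the other HIF targets, against 32.2% of all promoters and 38.3% of those of protein-coding genes. CACGTG was in 14.6% of glycolytic promoters and 30% of those of the other HIF targets, against 6.34% of all promoters. These shares count annotated starts, of which a gene can have several, as HK1 and PFKM do with 7 each. By gene, ACGTG was in 13 of 19 glycolytic genes and 5 of 9 other HIF targets. This compares with 5935 of all 27305 genes and 4012 of 15843 protein-coding genes. GCGTG was in 11 of 19 and 4 of 9, against 9889 of 27305 and 7231 of 15843. A gene with more starts has more chances of a match, and the 19 glycolytic genes have 41 starts, against 35116 for all 27305 genes. Counted by gene, the glycolytic share of GCGTG was thus above that of all genes, and counted by start it was below. A match is a description of letters and not a binding site. The presence of ACGTG did not follow the size of the differences among the promoters shown: ALDOC and BHLHE40, both higher on rLCC111, hold it, and so do PGK1 and LDHA, with small differences, and BNIP3, lower on rLCC111. The promoters of PFKFB4 and CA12 hold GCGTG or its reverse complement once and no ACGTG in this window.

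No member was 2-fold different in either direction, against 0.239% of all genes that were higher by this much and 0.0869% that were lower. At a fold of 1.2, which is a log2 difference of 0.26, 6 of the 30 measured members were higher on rLCC111 and 1 was lower, against 6.76% of all genes higher and 5.89% lower. The middle 95% of the differences of all genes ran from -0.37 to 0.42, and 4 members lay above this range and 0 below it. By its construction 2.5% of all genes lie on each side of that range. The median difference was -0.03 for the 18 measured glycolytic genes, 0.18 for the 9 measured other HIF targets and 0.10 for the 3 HIF subunits, beside 0.00 for all genes. After centring of the arrays on their medians these were -0.11, 0.10 and 0.02, beside -0.08 for all genes, and after quantile normalization the other HIF targets stood at 0.11. Of the glycolytic genes 13 had a difference below 0 and 5 above it, against 46.6% of all genes below 0, and of the other HIF targets 7 were above 0, 1 below and 1 equal, against 46.2% of all genes above 0. This split depends on the scaling, since 14 glycolytic genes were below 0 after centring of the arrays on their medians and 11 after quantile normalization or removal of a lowess trend with level, beside 73.6%, 65.8% and 55.8% of all genes. The other HIF targets above 0 numbered 7, 8 and 8 under the same scalings, and the median over all genes moved to -0.08, -0.06 and -0.02. Differences leaned with level on these arrays: of the 3658 genes with a mean level of at least 10, 62.1% had a difference below 0 and their median was -0.05. Of the glycolytic genes, 11 had a mean level of at least 10 and 9 of these were below 0, with a median of -0.03. After removal of the lowess trend with level, the median of the 18 glycolytic genes was -0.004, beside -0.02 for all genes. Beyond this, the part of level in the differences of the glycolytic genes was not tested.

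**Figure D1:**
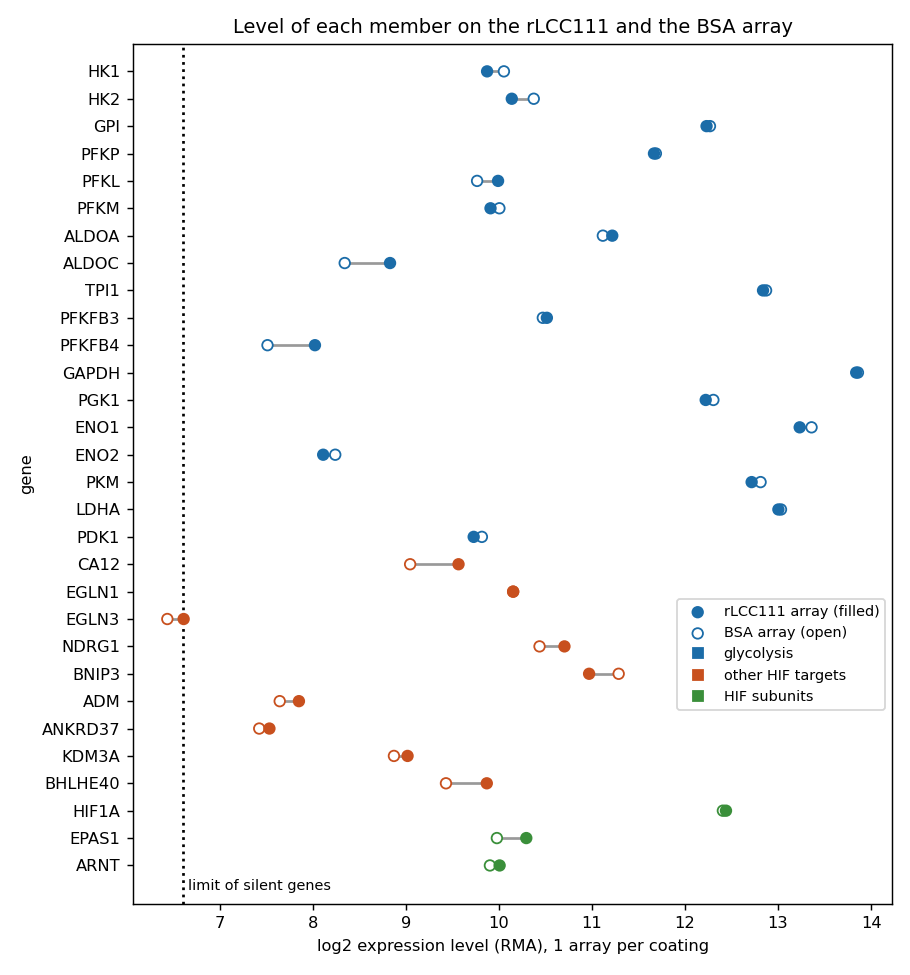
Log2 expression level of the 30 measured members on the rLCC111 array (filled) and the BSA array (open), 1 array per coating, coloured by role; the dotted line is the limit of silent genes at 6.61. The widest gaps are those of CA12, PFKFB4, ALDOC and BHLHE40, all with the filled point to the right, and EGLN3 lies at the limit. Levels of different genes come from different probes and are not to be ranked.

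Glucose is trapped in the cell by hexokinases. HK1, the housekeeping isozyme bound to mitochondria, was at 9.87 on rLCC111 and 10.05 on BSA, a log2 difference of -0.18. HK2, the inducible isozyme and a HIF target, was at 10.14 on rLCC111 and 10.37 on BSA, a difference of -0.24. Both hexokinase genes were thus slightly lower on rLCC111, and HK2 had the lowest difference of the glycolytic genes, with a fold of 0.849, short of the 1.2-fold mark. GPI, which turns glucose 6-phosphate into fructose 6-phosphate, was at 12.23 on rLCC111 and 12.27 on BSA.

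Phosphofructokinase, the main control point of the pathway, is built from 3 types of subunit. PFKP, the platelet type, was at 11.67 on rLCC111 and 11.69 on BSA. PFKM, the muscle type, was at 9.91 on rLCC111 and 10.01 on BSA, a difference of -0.10. PFKL, the liver type, was at 9.99 on rLCC111 and 9.77 on BSA, a difference of 0.23. The subunit genes therefore did not share a direction, and the fold of PFKL, 1.17, was just short of 1.2. The enzyme is stimulated by fructose 2,6-bisphosphate, which the bifunctional PFKFB enzymes make and remove. PFKFB4, a HIF target that has both activities, was at 8.02 on rLCC111 and 7.51 on BSA, a difference of 0.51 and a fold of 1.42. PFKFB3, whose kinase activity far exceeds its phosphatase activity, was at 10.52 on rLCC111 and 10.47 on BSA, a difference of 0.04. Of this pair of regulators PFKFB4 alone passed 1.2-fold.

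Aldolase splits fructose 1,6-bisphosphate into 2 trioses. ALDOC, the isozyme named for the brain and also induced by hypoxia, was at 8.83 on rLCC111 and 8.34 on BSA, a difference of 0.49 and a fold of 1.40. ALDOA, the muscle and ubiquitous isozyme, was at 11.22 on rLCC111 and 11.12 on BSA, a difference of 0.10. Both aldolase genes were higher on rLCC111, ALDOC by more than ALDOA. TPI1, which interconverts the trioses, has 2 sequences with its symbol, the stronger at 12.84 on rLCC111 and 12.87 on BSA and the other at 10.98 on rLCC111 and 10.99 on BSA. The differences of these sequences, -0.03 and -0.01, are the one case among the members where a second sequence could be compared.

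From GAPDH onwards every measured gene of the pathway was a little below its level on BSA. GAPDH, which oxidises glyceraldehyde 3-phosphate and serves as a common reference gene, was at 13.84 on rLCC111 and 13.86 on BSA, near the top of the scale, which ended at 13.92 on rLCC111 and 13.89 on BSA. Whether this ceiling compressed its difference of -0.02 was not tested. PGK1, which makes the first ATP of the pathway, was at 12.22 on rLCC111 and 12.30 on BSA, a difference of -0.08. The enolases, which form phosphoenolpyruvate, differed alike in their ubiquitous and neuronal forms. ENO1 was at 13.23 on rLCC111 and 13.36 on BSA, a difference of -0.13, and ENO2 was at 8.11 on rLCC111 and 8.24 on BSA, also -0.13. PKM, the pyruvate kinase gene of most tissues, was at 12.72 on rLCC111 and 12.81 on BSA, a difference of -0.10. Its M1 and M2 forms arise by splicing and are not told apart by 1 value per gene. PGAM1, the phosphoglycerate mutase between PGK1 and the enolases, has no value because its 5 sequences also carry the symbol of PGAM4.

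At the branch after pyruvate, LDHA, which reduces pyruvate to lactate, was at 13.00 on rLCC111 and 13.03 on BSA, a difference of -0.03. PDK1, which shuts pyruvate out of the mitochondrial cycle by phosphorylating pyruvate dehydrogenase, was at 9.73 on rLCC111 and 9.82 on BSA, a difference of -0.09. LDHA and PDK1 are both well-known HIF targets, and neither was higher on rLCC111. Across GAPDH, PGK1, ENO1, ENO2, PKM, LDHA and PDK1 the differences ran from -0.13 to -0.02. Several of these enzymes, GAPDH, PGK1 and LDHA among them, have processed pseudogenes elsewhere in the genome, and RNA from near-identical copies is not separated here.

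**Figure D2:**
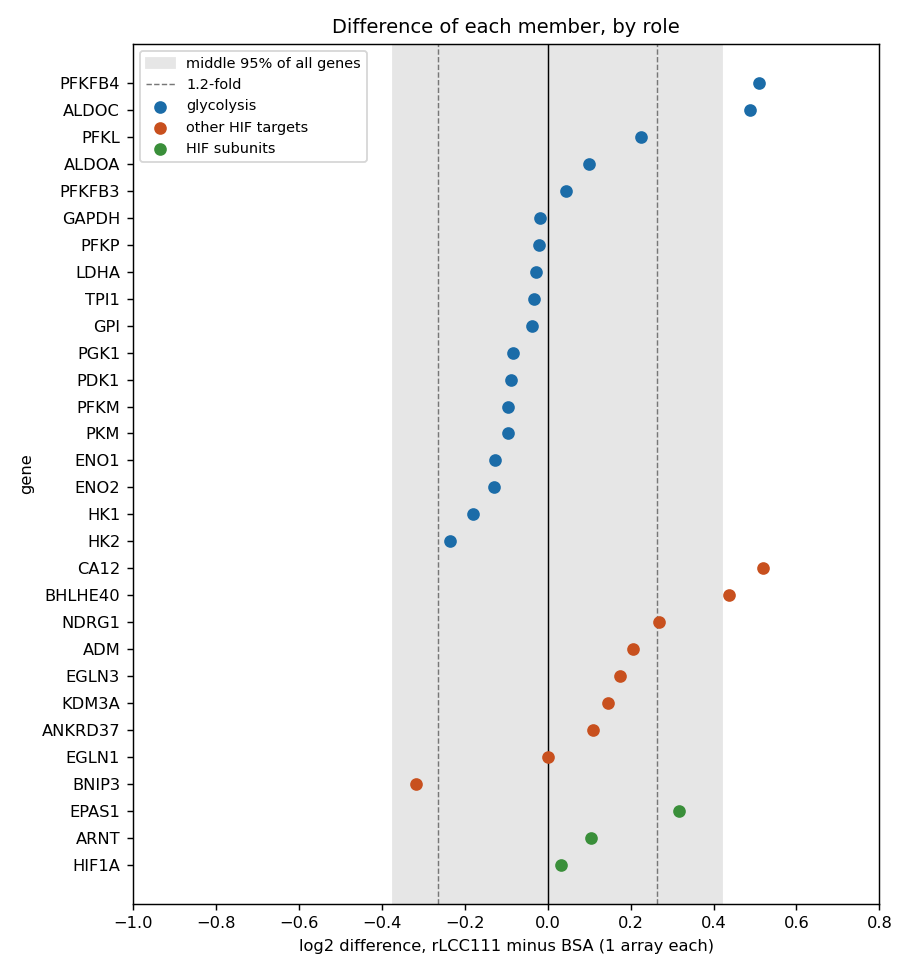
Log2 difference, rLCC111 minus BSA, of each of the 30 measured members, sorted within its role; the grey band is the middle 95% of all genes (-0.37 to 0.42) and dashed lines mark 1.2-fold. PFKFB4, ALDOC, CA12 and BHLHE40 lie to the right of the band, 13 of 18 glycolytic genes lie left of 0, and BNIP3 is the one member beyond the left dashed line.

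Among the other HIF targets, CA12, a membrane carbonic anhydrase that hydrates carbon dioxide outside the cell and takes part in pH control, had the largest difference of all measured members. It was at 9.57 on rLCC111 and 9.05 on BSA, a difference of 0.52 and a fold of 1.43. CA9, the related anhydrase that is a classical hypoxia marker, was not analysed here. BHLHE40, a transcriptional repressor of the circadian and hypoxia responses, was at 9.87 on rLCC111 and 9.43 on BSA, a difference of 0.44 and a fold of 1.36. NDRG1, a stress and differentiation gene with strong hypoxic induction, was at 10.70 on rLCC111 and 10.44 on BSA, a difference of 0.27 that only just reached the mark. Of the HIF targets outside glycolysis, these 3 passed 1.2-fold on the higher side, and after median centring NDRG1, at 0.19, no longer passed.

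Smaller differences above 0 were seen for secreted, chromatin and adaptor products. ADM, the vasodilator peptide adrenomedullin, was at 7.85 on rLCC111 and 7.65 on BSA, a difference of 0.21. KDM3A, a histone H3 lysine demethylase that needs oxygen, was at 9.02 on rLCC111 and 8.87 on BSA, a difference of 0.15. ANKRD37, a small ankyrin repeat protein, was at 7.53 on rLCC111 and 7.43 on BSA, a difference of 0.11. All 3 lay inside the middle range of all genes and below 1.2-fold.

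The prolyl hydroxylases close the feedback loop, since they destabilise the HIF alpha subunits and are themselves induced by HIF. EGLN1, the main hydroxylase in normal oxygen, was at 10.15 on both arrays. The deposited values were the same to the last digit given, as they were for 1325 of the 18417 genes. EGLN3, the most hypoxia-inducible of the family, was at 6.61 on rLCC111 and 6.44 on BSA, a difference of 0.18. EGLN3 was at the limit of silent genes on rLCC111 and below it on BSA, so that its difference rests on a dim signal.

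BNIP3 was the one gene among the HIF targets outside glycolysis with a difference below 0. It encodes a mitochondrial receptor for mitophagy, and was at 10.97 on rLCC111 and 11.29 on BSA, a difference of -0.32 and a fold of 0.802. Its direction was opposite to that of NDRG1, BHLHE40 and CA12, although all 4 are induced by hypoxia in many cell types. The HIF target list is thus mixed in direction.

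Of the HIF subunits, EPAS1, which encodes HIF-2 alpha, had the largest difference. It was at 10.29 on rLCC111 and 9.98 on BSA, a difference of 0.32 and a fold of 1.24. HIF1A, the other alpha subunit, was at 12.44 on rLCC111 and 12.41 on BSA, a difference of 0.03. ARNT, the shared partner, was at 10.01 on rLCC111 and 9.90 on BSA, a difference of 0.10. EPAS1 was the subunit past 1.2-fold, though not after median centring, at 0.24, and it lay inside the middle range of all genes.

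**Figure D3:**
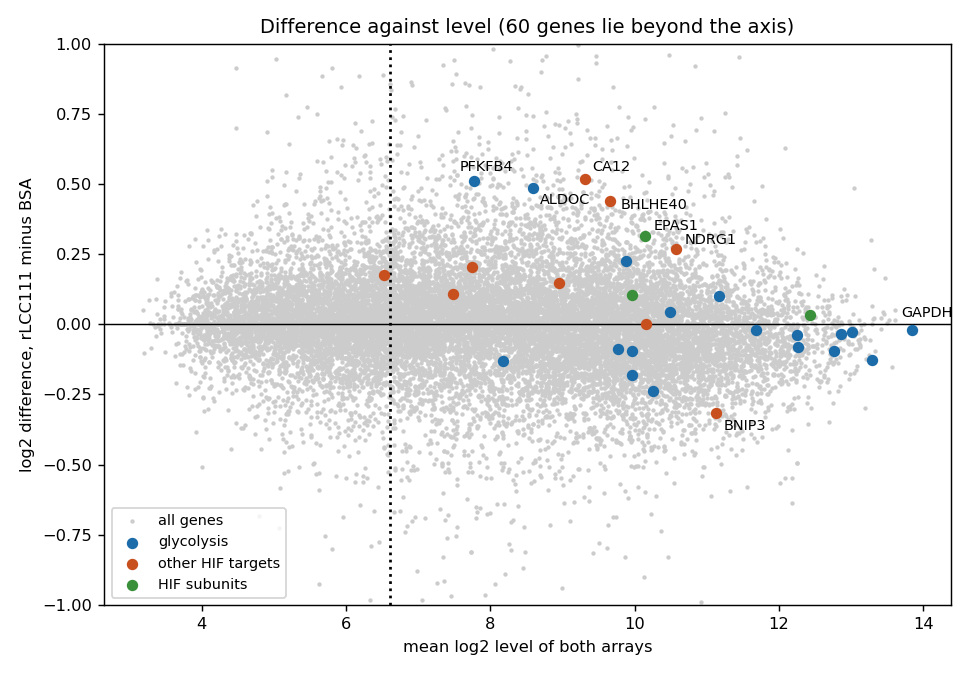
Log2 difference, rLCC111 minus BSA, against the mean log2 level of both arrays for all 18417 genes (grey) and the members (coloured by role), 1 array per coating; the dotted line is the limit of silent genes at 6.61. Glycolytic genes with a mean level above 10 lie along the grey cloud, just below 0 for the most part, while CA12, PFKFB4, ALDOC and BHLHE40 lie at its upper edge.

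Other genes of the same pathways, on lists of known function, were then examined. Among 18 measured isozymes and side enzymes of glycolysis the median was -0.03. At 1.2-fold, 2 were higher and 0 lower, against 6.76% and 5.89% of all genes. One of the 2 higher genes, PFKFB2, named after its value was seen, was below the limit of silent genes on both arrays. It was at 5.27 on rLCC111 and 4.90 on BSA, so that BPGM was the one above the limit. BPGM, which makes 2,3-bisphosphoglycerate by a bypass of the PGK1 step, was at 9.31 on rLCC111 and 8.60 on BSA, a difference of 0.71 and a fold of 1.64, larger than that of any member. MINPP1, a phosphatase that can remove 2,3-bisphosphoglycerate, was at 10.90 on rLCC111 and 10.77 on BSA. ADPGK, an ADP-dependent glucokinase, was at 9.63 on rLCC111 and 9.78 on BSA, and ENO3, the muscle enolase, at 6.69 on rLCC111 and 6.88 on BSA. Of the 18, 8 had at least 1 array above the limit of silent genes.

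The mitochondrial fate of pyruvate had no common direction, with 6 of 12 measured genes above 0, 6 below it and a median of 0.00. Among all genes 46.2% were above 0 and 46.6% below it. PDP1, the phosphatase that reactivates pyruvate dehydrogenase, was at 12.01 on rLCC111 and 11.63 on BSA, a difference of 0.37. The opposing kinase PDK2 was at 7.15 on rLCC111 and 6.85 on BSA, a difference of 0.30, and PDK3 was at 8.30 on rLCC111 and 8.09 on BSA. Genes of both the phosphatase and the kinases were thus higher on rLCC111, beside PDK1 at -0.09. PDHX, a structural subunit of the complex, was at 10.24 on rLCC111 and 10.40 on BSA.

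A second list of 28 measured hypoxia-induced genes did not share the upward median of the 9 HIF targets outside glycolysis. Its median was -0.01, with 14 genes above 0 and 14 below it, against 46.2% and 46.6% of all genes. Past 1.2-fold were 4 of the 28 on the higher side and 5 on the lower, against 6.76% and 5.89% of all genes. TMEM45A, a transmembrane protein gene, was at 7.07 on rLCC111 and 6.30 on BSA, a fold of 1.70 that starts below the limit of silent genes. P4HA2, a collagen prolyl hydroxylase, was at 9.86 on rLCC111 and 9.23 on BSA, a fold of 1.54, and P4HA1 at 9.50 on rLCC111 and 9.12 on BSA, a fold of 1.30. KDM4C, a histone demethylase, was the fourth of the higher genes, with a fold of 1.24. On the lower side, DDIT4, an inhibitor of mTORC1 that is also induced by other stresses, was at 7.17 on rLCC111 and 7.89 on BSA, a fold of 0.606. VLDLR, a lipoprotein receptor, was at 8.10 on rLCC111 and 8.82 on BSA, a fold of 0.607. AK4, a mitochondrial adenylate kinase, had a fold of 0.779, LOX, which crosslinks collagen, 0.820, and the receptor gene GPR146 0.817. GPR146 was dim, at 6.41 on rLCC111, below the limit of silent genes, and 6.70 on BSA, close to it. Known hypoxia-induced genes thus stood on both sides. Of the lysyl hydroxylases, which also modify collagen, PLOD1 had a difference of 0.26, just short of 1.2-fold, and PLOD2 one of 0.00. VEGFA, the angiogenic growth factor, was at 10.61 on rLCC111 and 10.63 on BSA, and the glucose transporter genes SLC2A1 and SLC2A3 had differences of 0.25 and -0.02. P4HA1, PLOD1, PLOD2, KDM4C, AK4, LOX, GPR146, VEGFA, SLC2A1 and SLC2A3 were chosen after their values were seen.

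Of 16 measured genes that regulate HIF, 9 were above 0 and 5 below it, against 46.2% and 46.6% of all genes, and the median was 0.01. At 1.2-fold, 1 was higher and 0 were lower, a count near the shares of 6.76% and 5.89% among all genes. That gene was BHLHE41, the paralog of BHLHE40 and a repressor of the same type, at 7.99 on rLCC111 and 7.68 on BSA, a difference of 0.30. CUL2 and ELOC, parts of the VHL ligase, had differences of -0.18 and -0.16, while its other parts ELOB and RBX1 had 0.14 and 0.02, and HSP90AA1, a chaperone of HIF1A, had -0.16. VHL itself was at 9.16 on rLCC111 and 9.13 on BSA. VHL, ELOB and RBX1 were named after their values were seen.

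**Figure D4:**
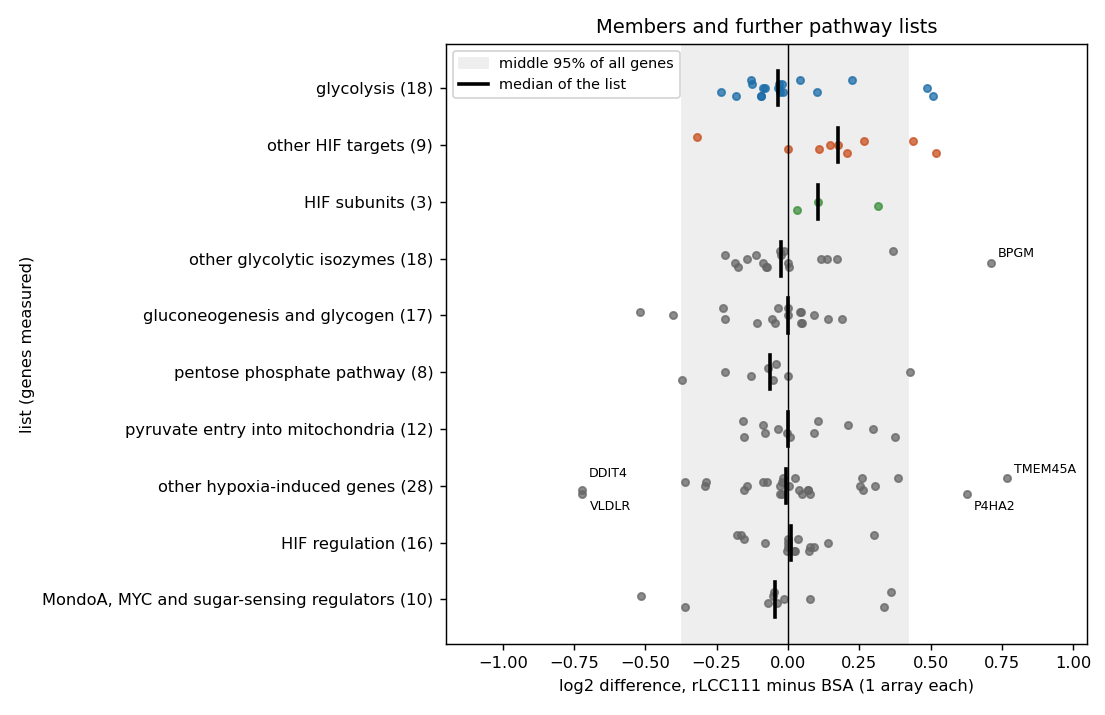
Log2 difference, rLCC111 minus BSA, of each gene (points) in the 3 roles of the members and in 7 further lists, with the number of genes measured in brackets, the list median (black bars) and the middle 95% of all genes (grey band). The medians of the other HIF targets, at 0.18, and of the HIF subunits, at 0.10, lie to the right, while that of the second hypoxia list, at -0.01, lies at 0 between outlying genes on both sides.

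The labelled cell type was checked on markers. Of 10 mesenchymal markers 8 had at least 1 array above the limit of silent genes, with VIM at 12.98 on rLCC111 and 13.05 on BSA. The matrix genes FN1, COL1A1 and COL6A1 on this list had log2 differences of 0.49, 0.36 and 0.25. Its other collagen genes, COL1A2 and COL3A1, named after their values were seen, had -0.02 and 0.00. Above the same limit were 1 of 5 epithelial markers (KRT19, difference 0.16), 1 of 5 endothelial markers (TIE1, -0.16) and 1 of 4 measured blood markers (CD14, 0.01). TIE1 was far above the limit, at 10.39 on rLCC111 and 10.55 on BSA. KRT19 was at 7.46 on rLCC111 and 7.30 on BSA, and CD14 was close to the limit, at 6.69 on rLCC111 and 6.68 on BSA. Both arrays held 33297 sequences, with medians of 7.12 on rLCC111 and 7.04 on BSA. In RNA from whole wells, a change in each cell and a change in the share of cells that express a gene cannot be told apart.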

How the data were processed

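Total RNA of HT1080 cells grown on rLCC111 or on BSA was used for GeneChip Human Gene 1.0 ST arrays, with 1 array per coating. The number of wells behind each array is not given. The deposited values are log2 expression levels that the authors made with RMA in Affymetrix Expression Console; version, settings and genome build are not given in the sources used here. No further scaling was applied. Of 33297 sequences, 19460 carry 1 gene symbol, 1754 several and 12083 none in the annotation of the platform. Symbols were brought up to date by gene ID from RefSeq (GRCh38.p14), and sequences with several symbols were left out.

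The methods name limma, which needs replicates, so no test was run, and lists are described by counts and medians. The precision is limited by the number of arrays. The members and lists were chosen with earlier results of these data known. Named genes are all members and, in each further list, genes 2-fold different and the 4 largest differences above the limit of silent genes; exceptions are stated. Alternatives were median centring, quantile normalization, a lowess trend (span 0.2, 3 iterations), the mean over sequences, and genes with both arrays above the limit. Python 3.11.15, numpy 2.4.6, pandas 2.3.3, statsmodels 0.14.6 and matplotlib 3.10.9 were used.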

Additional observations from a re-analysis of the deposited data

How the results depend on the processing

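The glycolysis median was the lowest of the 3 roles under all 3 scalings, and the 7 members at least 1.2-fold different kept their sign. Set beside the median of all genes, the glycolysis median was lower after centring (-0.11 and -0.08). It was higher than that of all genes after quantile normalization (-0.03 and -0.06) and lowess (-0.004 and -0.02). Median centring lowered every difference by the same amount, and gave medians of -0.11 for glycolysis and 0.10 for the other HIF targets. It left the HIF subunits with 0 genes at least 1.2-fold higher (EPAS1 at 0.24), took NDRG1 to 0.19, below 1.2-fold, and put 1 glycolytic gene, HK2 at -0.32, at least 1.2-fold lower. The further lists then had medians of -0.10 for glycolytic isozymes, -0.0794 for gluconeogenesis and glycogen, -0.14 for the pentose phosphate pathway, -0.0778 for pyruvate entry, -0.0865 for the second hypoxia list, -0.0682 for HIF regulation and -0.12 for sugar sensing. Quantile normalization gave 0.11 for the other HIF targets and -0.0834 for the glycolytic isozymes. The glycolysis median minus the HIF target median was -0.21 as deposited, -0.14 after quantile normalization and -0.15 after lowess; the cause was not tested. Signs changed for PFKFB3 and HIF1A under centring, and for GPI and PFKP under quantile normalization and lowess, all within 0.05 of 0 as deposited. No paired analysis was possible because there is 1 array per coating, and no array can be left out.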

Other observations

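Neighbouring pathways of sugar use had their own outlying genes. In the pentose phosphate pathway, which makes NADPH and ribose, 6 of 8 measured genes had a difference below 0, 1 was above it and the median was -0.06. Of all genes 46.6% were below 0, and of those with a mean level of at least 10 the share was 62.1%. TALDO1, the transaldolase, was at 10.76 on rLCC111 and 11.14 on BSA, a fold of 0.773, RPIA, the ribose phosphate isomerase, had a fold of 0.857 and PGD, the second dehydrogenase, 0.915. H6PD, the first enzyme of the corresponding route in the endoplasmic reticulum, was at 8.91 on rLCC111 and 8.48 on BSA, a fold of 1.34, opposite to them. Among 17 genes of gluconeogenesis and glycogen the median was 0.00. At 1.2-fold, 0 were higher and 2 lower, against 6.76% and 5.89% of all genes. The 2 lower genes were PCK2, the mitochondrial phosphoenolpyruvate carboxykinase, and PGM2, a phosphopentomutase. PCK2 was at 9.09 on rLCC111 and 9.61 on BSA, and PGM2 at 11.56 on rLCC111 and 11.97 on BSA. The glycogen-targeting subunits PPP1R3D and PPP1R3B had folds of 1.14 and 0.854. PPP1R3B was dim, at 6.52 on rLCC111, below the limit of silent genes, and 6.75 on BSA, close to it.

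Among 10 regulators of sugar use, 7 were below 0, against 46.6% of all genes, and the median was -0.05. TXNIP, which is induced by glucose through the MondoA factor and restrains glucose uptake, had a log2 difference of -0.52, a fold of 0.699. MLXIP, the gene of MondoA itself, was at 11.11 on rLCC111 and 10.77 on BSA, a fold of 1.26. MLXIP and TXNIP thus differed in opposite directions. ARRDC4 and MLX, on the same list and named after their values were seen, had log2 differences of -0.05 and -0.07. MYC, which drives many glycolytic genes, was at 10.33 on rLCC111 and 10.69 on BSA, a fold of 0.778. TP53INP1, a stress-induced gene, had a fold of 1.28. None of these differences has a replicate check.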
